A study of Homo sapiens with 6 samples.

Results

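RAS proteins are small GTPases that relay growth signals from the plasma membrane, and they reach that membrane only after lipids have been attached to their C-terminal end. The genes followed here are 9 of the 11227 genes with a row in the ribosome footprint tables of the human melanoma line CHL-1. They are the RAS GTPases NRAS, HRAS, RRAS and RRAS2, the prenyltransferase subunits FNTA, FNTB and PGGT1B, and the enzymes RCE1 and ICMT that finish the prenylated end. They were chosen by name, and each gene is represented by its RefSeq transcript with the most summed depth. SNORD50A and SNORD50B, the small nucleolar RNAs edited in the study, are reported to bind a RAS protein, which is why this pathway is of interest in these cells.

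Footprints, the messenger fragments that a ribosome shields from nuclease, came from 3 conditions. CHL-1 cells in which SNORD50A/B had been targeted with CRISPR are called CRISPR, CHL-1 cells given 10 mM AZC with 20 µM MG132 for 20 minutes are called AZC+MG132, and untreated CHL-1 cells are called parental. AZC (L-azetidine-2-carboxylic acid) is a proline analog that is built into new proteins and disturbs their folding, and MG132 blocks the proteasome. Each condition has 2 libraries, 1 of them labelled as rRNA removed, but only 1 table. No unedited control that passed through CRISPR was analysed here, and whether the edited cells are a clone is not stated in the labels.

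Without values per library there is no spread between replicates, so no difference below has a test. The tables hold 19783 CRISPR, 18409 AZC+MG132 and 19302 parental transcripts. Their summed read depth, in units of 1000000 bases, was 586 in CRISPR, 367 in AZC+MG132 and 474 in parental cells. No matching measurement of messenger amount was used, so fewer messengers and fewer ribosomes per messenger cannot be told apart. The host gene of SNORD50A/B has no row, and the edit could not be checked. Of 8 melanocyte lineage markers, SOX10 was at 353 in CRISPR, 323 in AZC+MG132 and 396 in parental cells, and S100B at 32.5 in CRISPR, 41.4 in AZC+MG132 and 29.8 in parental cells, in depth per 1000000 of the table's total. DCT, a pigment enzyme, was at 15.8 in CRISPR, 7.55 in AZC+MG132 and 4.14 in parental cells, the last below the level minimum defined further on. MITF, the lineage's transcription factor, was at 9.47 in CRISPR, 3.94 in AZC+MG132 and 5.97 in parental cells and passed that minimum in CRISPR alone. PMEL and MLANA were below it or without a row in each table, and TYR and TYRP1 had no row in any. Of the markers of other cell types, KRT10 of keratinocytes was at 7.77 in CRISPR, 8.28 in AZC+MG132 and 11.6 in parental cells. PTPRC of blood cells had a row in CRISPR alone, at 2.26, and KRT5, KRT14, HBB, PDGFRA and DCN had none. The part of these differences in the results below was not tested.

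As background, RAS proteins end in a CAAX motif, a cysteine followed by a short tail. Farnesyltransferase, built from the alpha subunit FNTA and the beta subunit FNTB, joins a farnesyl lipid to that cysteine. The type I geranylgeranyl transferase uses the same alpha subunit with the beta subunit PGGT1B and attaches a longer lipid to certain small GTPases instead. RCE1, a protease of the endoplasmic reticulum, then removes the tail, and ICMT, a methyltransferase of the same membrane, caps the exposed cysteine. In melanoma NRAS is the RAS gene most often found mutated.

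The level of a gene is its depth summed over the 5′ UTR, coding and 3′ UTR bins, per 1000000 of its table's total. A level minimum was set at the 25th percentile of row sums, 3696 bases of depth in CRISPR, 2614 in AZC+MG132 and 3187 in parental cells. Of the 9 genes, 6 were above it in CRISPR, 6 in AZC+MG132 and 8 in parental cells. HRAS and RRAS2 passed it in parental cells alone, and RRAS passed it in none. The values of these 3 genes rest on few fragments and are given as values only.

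To compare levels between genes, coding depth was divided by coding length, which was read from the bins. Without the stop codon, these lengths came to 189 codons for NRAS, 170 for the HRAS transcript used, 218 for RRAS and 204 for RRAS2. For the enzymes they came to 379 codons for FNTA, 437 for FNTB, 377 for PGGT1B, 329 for RCE1 and 284 for ICMT. On this scale NRAS stood first in every table and ICMT second.

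**Figure D1:**
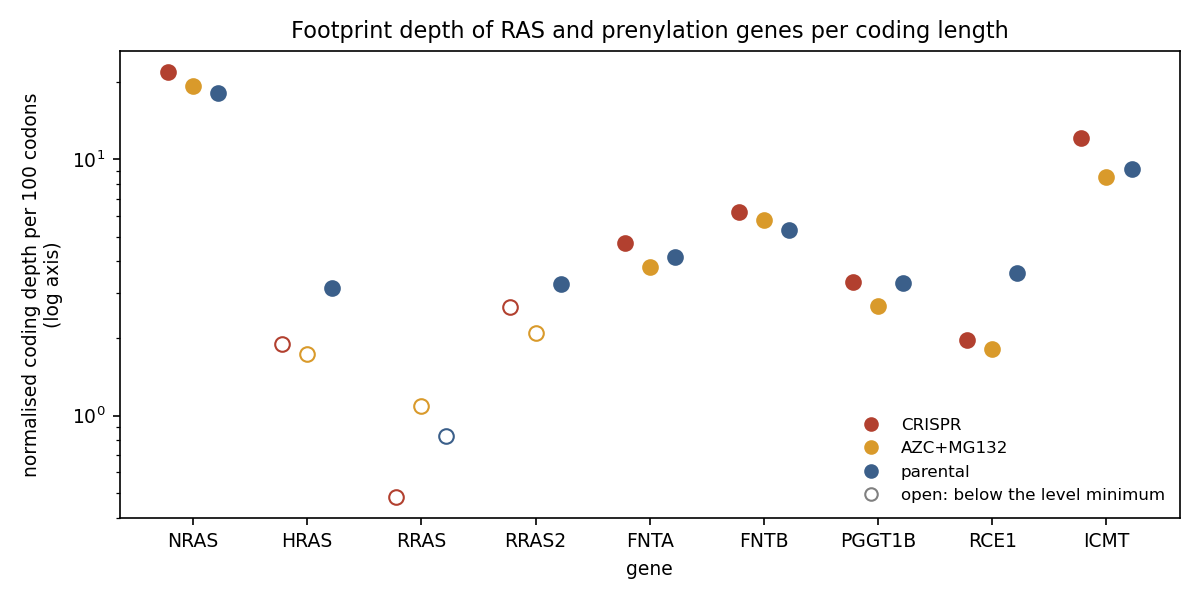
Normalised coding depth per 100 codons (log axis) of each gene in the CRISPR, AZC+MG132 and parental tables, 1 point per table, with open points for values below the level minimum. NRAS lies between 18.2 and 21.9 in the 3 tables, above every other gene, and RRAS lies lowest in each.

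NRAS, the RAS GTPase first found in neuroblastoma, had a coding depth of 21.9 per 100 codons in CRISPR, 19.3 in AZC+MG132 and 18.2 in parental cells. Its level over all bins was 54.6 in CRISPR, 52.0 in AZC+MG132 and 41.5 in parental cells. Both other tables were thus above the parental one, CRISPR by a log2 ratio of 0.40 and AZC+MG132 by 0.32. Of all compared genes, 84.9% had a lower ratio than NRAS in CRISPR against parental and 82.4% in AZC+MG132 against parental. Those comparisons share the parental table.

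Part of the NRAS difference lay outside the coding sequence, a larger part in AZC+MG132 than in CRISPR. The level in coding bins was 41.7 in CRISPR, 36.7 in AZC+MG132 and 34.5 in parental cells. In coding bins alone the log2 ratio was 0.27 for CRISPR and 0.09 for AZC+MG132 against parental. In the 5′ UTR the NRAS level was 10.3 in CRISPR, 7.51 in AZC+MG132 and 5.29 in parental cells, a fold of 1.94 for CRISPR and 1.42 for AZC+MG132 against parental. In the 3′ UTR it was 2.67 in CRISPR, 7.79 in AZC+MG132 and 1.72 in parental cells. The AZC+MG132 table therefore stood out at the 3′ UTR and the CRISPR table at the 5′ UTR. Fragments at the start codon can reach into the last 5′ UTR bins, and their part in the 5′ UTR values was not tested.

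HRAS, the closest relative of NRAS in this group, was far lower. Its level was 5.85 in CRISPR, 5.87 in AZC+MG132 and 8.40 in parental cells, and only the parental value passed the minimum. Its coding depth was 1.90 per 100 codons in CRISPR, 1.73 in AZC+MG132 and 3.15 in parental cells. NRAS thus carried 11.6 times the coding depth per codon of HRAS in CRISPR, 11.1 times in AZC+MG132 and 5.76 times in parental cells. The CRISPR and AZC+MG132 factors rest on HRAS values below the minimum, so their distance from the parental factor was not read as a difference. The transcript with the most depth, NM_176795, encodes a shorter form of 170 codons. Read instead from NM_005343, the 189-codon form, the level was 5.57 in CRISPR, 5.39 in AZC+MG132 and 8.40 in parental cells. The transcripts share most of their sequence, so their footprints cannot be assigned to 1 form.

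RRAS2, also called TC21, was at 6.12 in CRISPR, 6.13 in AZC+MG132 and 7.94 in parental cells. Per 100 codons its coding depth was 2.66 in CRISPR, 2.09 in AZC+MG132 and 3.25 in parental cells, close to that of HRAS. RRAS, a GTPase known for acting on integrin-mediated adhesion, was the lowest of the group. Its level was 1.06 in CRISPR, 3.67 in AZC+MG132 and 2.41 in parental cells. Per 100 codons it reached 0.48 in CRISPR, 1.09 in AZC+MG132 and 0.84 in parental cells. As with HRAS, a ratio over so little depth was not read as a difference.

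FNTA, the alpha subunit that both prenyltransferases share, had a level of 18.6 in CRISPR, 15.3 in AZC+MG132 and 17.4 in parental cells. FNTB, the farnesyltransferase beta subunit, had a level of 28.2 in CRISPR, 26.7 in AZC+MG132 and 23.5 in parental cells. PGGT1B, the beta subunit of the geranylgeranyl enzyme, had a level of 18.2 in CRISPR, 17.8 in AZC+MG132 and 18.1 in parental cells. All 3 subunits stood close to parental cells in both other tables. For FNTA the log2 ratio against parental was 0.09 in CRISPR and -0.19 in AZC+MG132, for FNTB 0.26 in CRISPR and 0.18 in AZC+MG132, and for PGGT1B 0.01 in CRISPR and -0.02 in AZC+MG132. The sign of the last value turned to positive when tables were scaled to the median ratio.

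Per 100 codons, FNTB had a coding depth of 6.24 in CRISPR, 5.79 in AZC+MG132 and 5.30 in parental cells. FNTA came next with 4.72 in CRISPR, 3.79 in AZC+MG132 and 4.17 in parental cells. PGGT1B followed with 3.34 in CRISPR, 2.67 in AZC+MG132 and 3.30 in parental cells. The order of the 3 subunits was the same in each table. The alpha subunit amounted to 0.493 of the summed beta subunits in CRISPR, 0.448 in AZC+MG132 and 0.485 in parental cells. FNTB exceeded PGGT1B by a factor of 1.87 in CRISPR, 2.17 in AZC+MG132 and 1.60 in parental cells.

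FNTB needs a limit. The readthrough gene CHURC1-FNTB covers the same exons and has a level of 46.2 in CRISPR, 48.3 in AZC+MG132 and 35.0 in parental cells, so reads can be shared between both rows. MAX, a partner of the MYC transcription factor, also overlaps FNTB in the genome, with a level of 20.0 in CRISPR, 11.4 in AZC+MG132 and 15.2 in parental cells. Whether reads were counted by strand was not given in the sources used here. Any part these genes have in the FNTB value was not tested.

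RCE1, the CAAX protease, was the gene that departed most from parental cells among the 6 above the minimum in all tables. Its level was 9.20 in CRISPR, 7.82 in AZC+MG132 and 14.9 in parental cells. In AZC+MG132 its depth, 2871 bases, was little above the minimum of 2614, so that value too rests on few fragments. The log2 ratio was -0.69 for CRISPR and -0.93 for AZC+MG132 against parental, and those comparisons share the parental table. Of the 7540 genes compared in CRISPR against parental, 5.03% had a lower ratio. Of the 7277 genes compared in AZC+MG132 against parental, 3.26% did. Counting both directions, a ratio at least as large in size was held by 9.54% of genes in CRISPR and 4.71% in AZC+MG132 against parental. Between CRISPR and AZC+MG132 the log2 ratio of RCE1 was 0.23.

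The lower RCE1 level was present on both sides of the coding sequence. In the first 100 coding bins the log2 ratio against parental was -0.80 in CRISPR and -0.61 in AZC+MG132. In the last 100 coding bins it was -0.99 in CRISPR and -2.08 in AZC+MG132, so the AZC+MG132 table was lowest towards the end of the coding sequence. The last value rests on little depth, as RCE1 had a level of 0.986 there in AZC+MG132 and 4.16 in parental cells. In its 5′ UTR the log2 ratio was -0.16 in CRISPR and -0.73 in AZC+MG132. The second RCE1 transcript, of 225 codons, had a level of 6.52 in CRISPR, 5.95 in AZC+MG132 and 11.8 in parental cells. Its summed depth in CRISPR, 3824 bases, equalled the coding depth of the transcript used. Both transcripts can therefore hold the same reads, and the second is not a separate observation. RCE1 overlaps TOP6BL, a meiotic recombination gene, which had a level of 5.16 in CRISPR, 7.05 in AZC+MG132 and 7.01 in parental cells.

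ICMT, the methyltransferase of the last step, had a level of 37.6 in CRISPR, 28.5 in AZC+MG132 and 29.1 in parental cells. Its coding depth was 12.1 per 100 codons in CRISPR, 8.55 in AZC+MG132 and 9.20 in parental cells. The CRISPR table was highest on both scales, at a log2 ratio of 0.37 over all bins against parental and of 0.40 against AZC+MG132. The AZC+MG132 table stood at -0.03 against parental, a value whose sign turned to positive when tables were scaled to the median ratio. RCE1 had 0.163 of the coding depth per codon of ICMT in CRISPR, 0.213 in AZC+MG132 and 0.390 in parental cells, so these successive enzymes were least alike in CRISPR cells.

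No gene of the group above the minimum reached a 2-fold difference, a limit set on size without any test. In CRISPR against parental 0 of 6 were past 2-fold, where 2.40% of all genes compared were. Of these 6, 5 had a positive ratio and RCE1 a negative one, with a median of 0.18 over the 6 beside 0.004 over all genes. The smallest positive ratio, 0.01 for PGGT1B, turned to -0.01 with the values as deposited, so that count depends on the setting. In AZC+MG132 against parental 0 of 6 were past 2-fold, where 3.26% of all genes were, with a median of -0.02 beside -0.05 over all genes. In CRISPR against AZC+MG132 0 of 6 were past 2-fold, where 6.46% of all genes were, with a median of 0.16 beside 0.06. With backgrounds this low, 0 of 6 is near the share of all genes in each comparison.

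**Figure D2:**
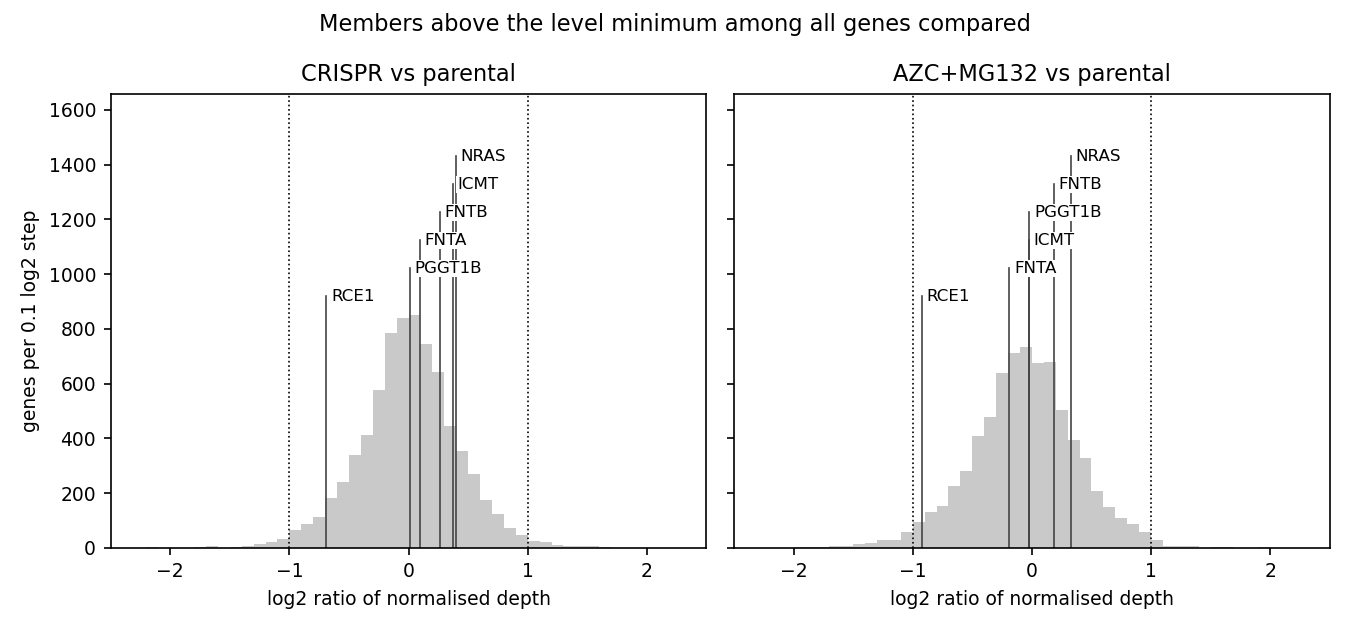
Number of genes (bars, steps of 0.1) by log2 ratio of normalised depth in CRISPR against parental and AZC+MG132 against parental, with the 6 compared genes as lines and the 2-fold limits dotted. RCE1 lies towards the low edge of both, at -0.69 in CRISPR and -0.93 in AZC+MG132, and the other 5 genes lie inside the bulk.

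Depth was not spread alike over the regions of these messengers. PGGT1B had 30.9% of its depth in the 5′ UTR in CRISPR, 38.0% in AZC+MG132 and 30.98% in parental cells. Its share was above that of 90.3% of genes in CRISPR, 91.4% in AZC+MG132 and 92.3% in parental cells. RCE1 had 29.1% in CRISPR, 23.0% in AZC+MG132 and 20.2% in parental cells, and NRAS 18.8% in CRISPR, 14.4% in AZC+MG132 and 12.7% in parental cells. The medians over all genes above the minimum were 5.87% in CRISPR, 10.2% in AZC+MG132 and 5.44% in parental cells, so NRAS, PGGT1B and RCE1 were above the median in each table.

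FNTB and ICMT had a 5′ UTR share below the median of all genes in every table, and FNTA did in CRISPR and AZC+MG132. The 5′ UTR share of FNTA was 3.61% in CRISPR, 5.25% in AZC+MG132 and 8.83% in parental cells, the last of which was above the median of all genes. The share of FNTB was 1.12% in CRISPR, 3.65% in AZC+MG132 and 0.485% in parental cells. ICMT was listed at 0 in the CRISPR 5′ UTR, where AZC+MG132 had 1.14% and parental cells 1.79%. Over the whole tables the AZC+MG132 share was the highest, at 15.7%, against 10.7% in CRISPR and 10.0% in parental cells. Among the 6 genes that passed in every table, FNTB and PGGT1B also had their highest share in AZC+MG132, NRAS and RCE1 had it in CRISPR, and FNTA and ICMT in parental cells.

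**Figure D3:**
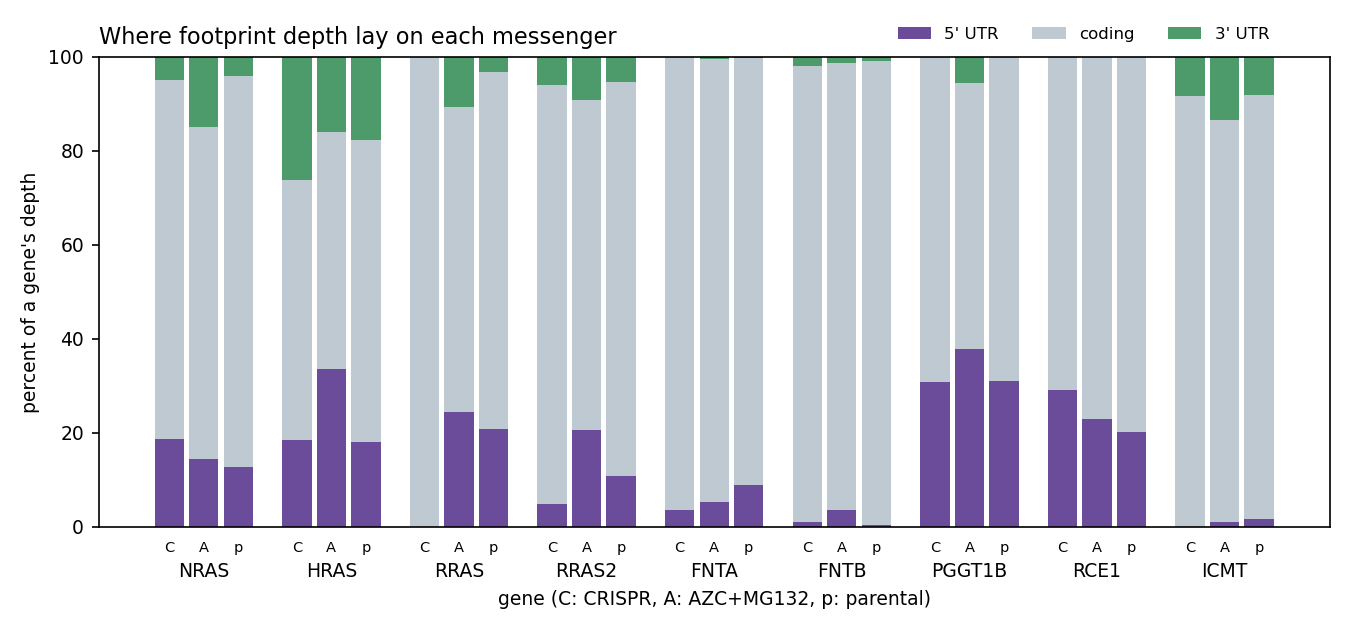
Percent of each gene's depth in its 5′ UTR, coding and 3′ UTR bins, 1 bar per gene and table (C for CRISPR, A for AZC+MG132, p for parental). PGGT1B has the largest 5′ UTR share of the genes above the minimum in every table, from 30.9% to 38.0%, while FNTB and ICMT lie at 3.65% or less in each.

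Behind the start codon the 5′ share was measured, meaning the average depth in the first 20 of 200 coding bins divided by the average in all 200. For NRAS it was 1.77 in CRISPR, 1.48 in AZC+MG132 and 1.21 in parental cells. For PGGT1B it was 0.387 in CRISPR, 1.89 in AZC+MG132 and 1.11 in parental cells, and for FNTB 0.695 in CRISPR, 1.60 in AZC+MG132 and 0.911 in parental cells. Both beta subunits thus had their highest share in AZC+MG132 and their lowest in CRISPR. For FNTA it was 0.276 in CRISPR, 0.269 in AZC+MG132 and 0.514 in parental cells. ICMT was listed at 0 in CRISPR over these bins, and had 0.285 in AZC+MG132 and 0.509 in parental cells. RCE1 had 2.78 in CRISPR, 2.06 in AZC+MG132 and 2.22 in parental cells.

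The share was higher in CRISPR than in parental cells for 2 of the 6 genes, NRAS and RCE1, where 52.9% of all genes were. It was higher in AZC+MG132 than in parental cells for 3 of the 6, NRAS, FNTB and PGGT1B, where 77.8% of all genes were. It was higher in CRISPR than in AZC+MG132 for 3 of the 6, NRAS, FNTA and RCE1, where 25.2% of all genes were. These counts moved with the width of the window. With the first 10 bins the share was higher in CRISPR than in parental cells for 4 of the 6, where 51.6% of all genes were, and higher in AZC+MG132 than in parental cells for 5 of the 6, where 74.7% were. It was higher in CRISPR than in AZC+MG132 for 2 of the 6, where 27.2% were.

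Along the NRAS coding sequence, footprints covered 195 of 200 bins in CRISPR and all 200 in AZC+MG132 and parental cells. The deepest point was at codon 1 in CRISPR, codon 2 in AZC+MG132 and codon 2 in parental cells. It reached 5.77 times the gene's mean depth in CRISPR, 4.31 times in AZC+MG132 and 3.49 times in parental cells. Beyond the start the tables parted. The densest 20 bins lay at codons 137 to 155 in CRISPR and held 25.1% of the coding depth. They lay at codons 29 to 47 in AZC+MG132, with 16.4%, and at codons 92 to 110 in parental cells, with 19.4%.

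**Figure D4:**
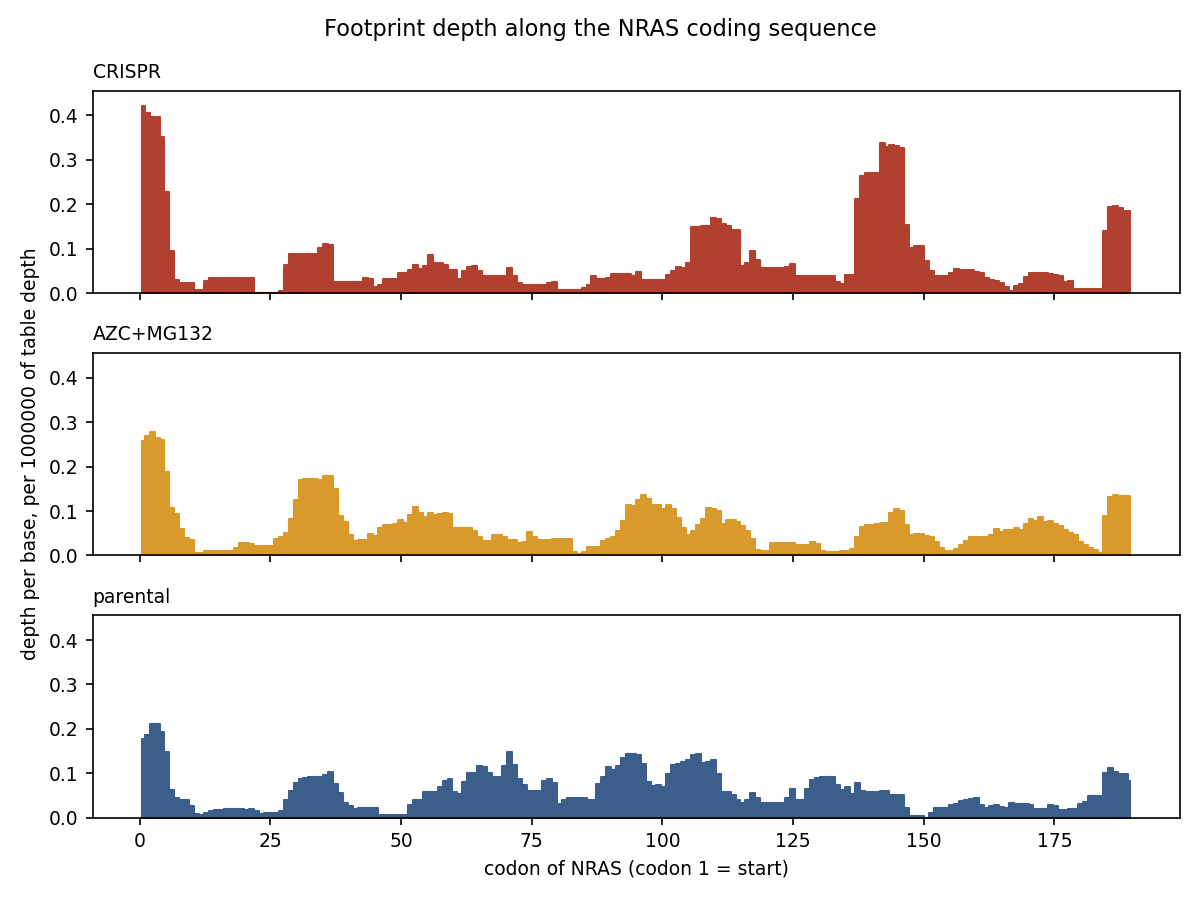
Footprint depth per base, per 1000000 of the table's total, by codon of NRAS in the CRISPR, AZC+MG132 and parental tables. All 3 have a peak at the start codon, and the CRISPR table has a further block at codons 137 to 155 that holds 25.1% of its coding depth.

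The later part of the NRAS coding sequence, where that block lies, was higher in CRISPR than in parental cells, and the earlier part was not. In the last 100 coding bins the log2 ratio of CRISPR against parental was 0.65, and in the first 100 it was -0.16. For AZC+MG132 against parental it was 0.04 in the last 100 and 0.13 in the first 100. Across the 200 bins the NRAS profile had a Pearson correlation of 0.50 between CRISPR and parental, 0.61 between AZC+MG132 and parental and 0.64 between CRISPR and AZC+MG132. Neighbouring bins share fragments, so these coefficients only describe likeness.

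ICMT kept a similar outline in the 3 tables, with correlations of 0.58 for CRISPR and 0.64 for AZC+MG132 against parental. Its deepest point was at codon 246 in CRISPR, 244 in AZC+MG132 and 248 in parental cells. ICMT had more depth on its later codons in every table. The last 100 coding bins had a level of 23.8 in CRISPR, 15.6 in AZC+MG132 and 18.0 in parental cells. The first 100 had 10.7 in CRISPR, 8.72 in AZC+MG132 and 8.19 in parental cells. FNTA had no such likeness between tables, with correlations of 0.07 for CRISPR and 0.01 for AZC+MG132 against parental. RCE1 had correlations of 0.39 for CRISPR and 0.59 for AZC+MG132 against parental.

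How many fragments stand behind a value could be seen where footprints lay apart from others. A stack was a stretch of coding depth bounded on each side by empty bins or by the end of the coding sequence. It had to be flat, at a whole number of copies, apart from its end bins. Copies in a stack need not share both ends, and where they differ the length given is an average. A stack at an end of the coding sequence may continue into the UTR, so its length is a part of the fragment. Over the 9 genes there were 26 such stacks in CRISPR, 19 in AZC+MG132 and 17 in parental cells. Their median length was 28 bases, and NRAS and ICMT had none in any table. The median number of copies in a stack was 10 in CRISPR, 3 in AZC+MG132 and 3 in parental cells. Stacks of 5 or more copies numbered 23 of 26 in CRISPR, 8 of 19 in AZC+MG132 and 5 of 17 in parental cells. Sites where fragments overlap others are left out, and more of them can be lost where coverage is fuller. The copies are therefore not read as a difference between the tables. Whether copies are separate ribosomes or copies made in amplification was not tested.

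RRAS shows this most plainly. Its whole depth in CRISPR cells was a stack of 15 copies of 28 bases from codon 135 and another of 8 copies of 25 bases from codon 174. No depth lay in its UTRs or in the first 100 coding bins of that table. It covered 18 of 200 coding bins in CRISPR, 53 in AZC+MG132 and 71 in parental cells. In parental cells the deepest point of RRAS, at 12 copies, was a stack from codon 129. Its average length was 28.75 bases, so not all its fragments had the same ends.

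For 8 of the 9 genes the CRISPR table covered the fewest coding bins of the 3 tables, the exception being HRAS. The same count was not made over all genes, so it is not read as a trait of this group. RCE1 was covered in 76 of 200 bins in CRISPR, 93 in AZC+MG132 and 170 in parental cells. HRAS was covered in 89 bins in CRISPR, 76 in AZC+MG132 and 150 in parental cells. FNTA was covered in 135 in CRISPR, 174 in AZC+MG132 and 177 in parental cells, and PGGT1B in 115 in CRISPR, 125 in AZC+MG132 and 161 in parental cells. The median over all genes above the minimum was 127 in CRISPR, 158 in AZC+MG132 and 174 in parental cells, although the CRISPR table had the greatest total depth. The part of this thinner coverage in the ratios of CRISPR cells was not tested.

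**Figure D5:**
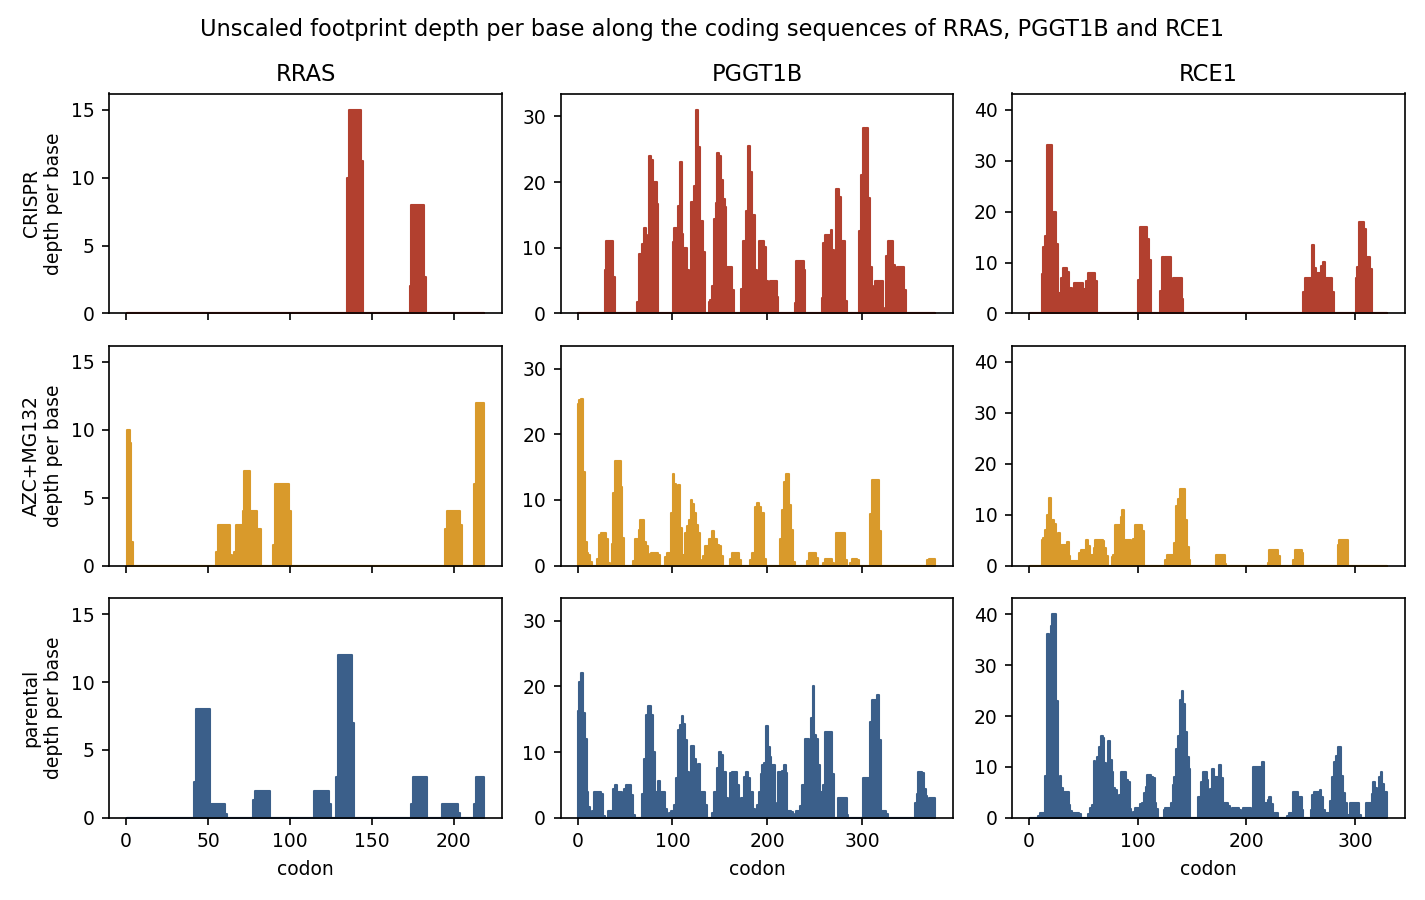
Unscaled footprint depth per base by codon of RRAS, PGGT1B and RCE1 in the CRISPR, AZC+MG132 and parental tables. RRAS has only 2 stacks in CRISPR, of 15 and 8 copies, and RCE1 is covered in 76 of 200 bins in CRISPR, 93 in AZC+MG132 and 170 in parental cells.

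Genes around these 9 were described from lists of the same pathway. Past 2-fold were 2.40% of all genes in CRISPR against parental and 3.26% in AZC+MG132 against parental. In CRISPR against AZC+MG132 the share was 6.46%. The lists are short, so their counts are given beside these shares and not read as results about a list. Of the other RAS family GTPases, 7 were compared in CRISPR against parental and 8 in AZC+MG132 against parental, and 0 were past 2-fold in either. RHEB, an activator of mTORC1 that is itself farnesylated, was the most abundant, at 117 in CRISPR, 95.2 in AZC+MG132 and 98.9 in parental cells. RAP1B, a GTPase of cell adhesion, was at 54.6 in CRISPR, 48.3 in AZC+MG132 and 55.6 in parental cells. RAP2C, a relative of RAP1B, was at 20.9 in CRISPR, 9.87 in AZC+MG132 and 13.2 in parental cells, and was the 1 gene of 7 past 2-fold in CRISPR against AZC+MG132.

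Of the exchange factors and GTPase activators that switch RAS on and off, 9 were compared in CRISPR against parental, and 1 was past 2-fold. It was RASA3, a GTPase activator that turns RAS off, with 18.0 in CRISPR, 7.58 in AZC+MG132 and 7.99 in parental cells, a log2 ratio of 1.17 against parental. The AZC+MG132 and parental values of RASA3 were little above the level minimum, so its ratios rest on few fragments. In AZC+MG132 against parental 1 of 8 was past 2-fold. That was PTPN11, the phosphatase SHP2 that promotes RAS activation, with 48.7 in CRISPR, 14.4 in AZC+MG132 and 44.2 in parental cells, a log2 ratio of -1.62. Both were also past 2-fold in CRISPR against AZC+MG132, where 6 genes of the list were compared and 6.46% of all genes were past it. GRB2, the adaptor that brings an exchange factor to receptors, was at 55.7 in CRISPR, 42.6 in AZC+MG132 and 55.5 in parental cells.

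All 15 genes of prenyl supply, RAB prenylation and CAAX handling were compared. FDPS, which makes farnesyl diphosphate, the lipid donor of FNTB, was at 80.5 in CRISPR, 117.4 in AZC+MG132 and 118.3 in parental cells. Its log2 ratio in CRISPR against parental was -0.55. RABGGTB, the beta subunit of the enzyme that prenylates RAB proteins, was at 126 in CRISPR, 94.0 in AZC+MG132 and 66.6 in parental cells, a log2 ratio of 0.92 for CRISPR against parental. PTAR1, which resembles prenyltransferase alpha subunits, was at 15.9 in CRISPR, 13.3 in AZC+MG132 and 7.96 in parental cells. It lay at the 2-fold limit in CRISPR against parental and was the 1 gene of 15 to reach it. The parental value of PTAR1 was little above the level minimum, so this ratio too rests on few fragments. The list's median log2 ratio was 0.07 in CRISPR and 0.05 in AZC+MG132 against parental, where all genes had 0.004 in CRISPR and -0.05 in AZC+MG132.

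Of the palmitoylation cycle and membrane delivery of RAS, 11 genes were compared in CRISPR and 10 in AZC+MG132 against parental, with 0 past 2-fold in both. LGALS1, a galectin that binds farnesylated HRAS, was at 1324 in CRISPR, 1554 in AZC+MG132 and 1340 in parental cells. PPP1CB, a phosphatase subunit of the SHOC2 complex, was at 133 in CRISPR, 134 in AZC+MG132 and 127 in parental cells.

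Of farnesylated proteins outside the RAS family, 14 were compared in each comparison. In CRISPR against parental 0 were past 2-fold. In AZC+MG132 against parental RHOB, a GTPase of endosomes, was past it on the high side, at 94.1 in AZC+MG132 and 47.0 in parental cells. PTP4A2, a prenylated phosphatase, was past it on the low side, at 23.8 in AZC+MG132 and 70.0 in parental cells, and its CRISPR level was 70.1, past 2-fold against AZC+MG132. CENPF, a kinetochore protein, was at 376 in CRISPR, 571 in AZC+MG132 and 466 in parental cells, and NAP1L1, a histone chaperone, at 441 in CRISPR, 265 in AZC+MG132 and 412 in parental cells.

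For scale, ACTB was at 3526 in CRISPR, 3824 in AZC+MG132 and 3763 in parental cells, and GAPDH at 2711 in CRISPR, 2179 in AZC+MG132 and 2533 in parental cells.

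Likeness of pattern was measured as the Euclidean distance of log2 levels over the 3 tables, among the 7073 genes above the minimum in all. The genes nearest to NRAS were FAM111B at a distance of 0.074, LIG3 at 0.087 and OGT at 0.089. LIG3, a DNA ligase, for example was at 51.8 in CRISPR, 53.5 in AZC+MG132 and 41.3 in parental cells. Nearest to ICMT were MTX2 at 0.065, LARS2 at 0.068 and PTPN12 at 0.077. MTX2, a protein of the outer mitochondrial membrane, was at 38.9 in CRISPR, 28.6 in AZC+MG132 and 29.9 in parental cells. With 3 tables such distances are a description of level and order alone.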

How the data were processed

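Ribosome footprints were sequenced from 6 libraries in 3 groups of 2. Bowtie2, TopHat2 and the genome build hg19 are listed, without versions, per the submitters' processing notes. The authors deposited 1 table per condition, matched to its group by the table's name, with values on a log2 scale: log2(x + 1), rounded to 2 decimals, where x is the summed read depth of a bin. How libraries were joined into a table was not given in the sources used here. Bins 1 to 100 were read as 5′ UTR, the next 200 as coding and the last 100 as 3′ UTR, from the values. In the coding bins the deposited values also carry the value of the row above, which was subtracted. Of low coding bins (log2 under 4), 5.79% in CRISPR, 5.23% in AZC+MG132 and 5.68% in parental cells were whole numbers as deposited, and 100% in each after subtraction.

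Names came from RefSeq gene tables of assembly GRCh38.p14, used for names and neighbours only. A gene was taken from its NM_ row with most summed depth over the tables. Depth counts bases, so values carry no counting interval of their own, and no test was possible without values per library. To judge the alternatives alone, exact binomial 95% intervals were taken from depth divided by 28 bases, the median stack length. They cover counting error only and are too narrow where fragments are amplified copies. Ratios used a pseudocount of 0.5 on summed depth, and 5′ shifts a pseudocount of 0.05 on the share, among genes above the level minimum in both tables. Coding lengths were found as the length whose bins divide the low depths evenly, taken within 1 base of a multiple of 3, since no protein table was used. Steps were tested on simulated data. Python 3.11.15, NumPy 2.4.6, pandas 2.3.3 and matplotlib 3.10.9 were used.

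Named genes were the 9 of the group, every gene past 2-fold and the 2 most abundant of each of 6 pathway lists, 1 of which is not reported here, 3 nearest genes each for NRAS and ICMT, and ACTB and GAPDH. The genes and lists were chosen with earlier results of these data known. Related RAS genes and pseudogenes can share reads, and how the authors counted such reads was not given in the sources used here. Alternatives covered scaling, the carried row, bins summed, single high bins, the transcript row, the level minimum, the pseudocount and the width of the 5′ window.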

Additional observations from a re-analysis of the deposited data

How the results depend on the processing

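No paired analysis was possible because each condition has 1 table and no values per library. For the ratios of the 9 genes in 3 comparisons, 300 alternative values were computed, of which 34 lay outside the 95% counting interval of the reported ratio and 29 had the other sign. Some of the 300 could not move. A changed level minimum leaves a gene's ratio as it is, and so does summing transcripts for a gene with a single one. The counts therefore understate how often a real change of setting moved a ratio. RCE1 kept its negative sign in CRISPR against parental (-0.99 to -0.60) and in AZC+MG132 against parental (-2.08 to -0.61), and ICMT kept its positive sign in CRISPR against parental (0.36 to 0.40). NRAS in CRISPR against parental ranged from -0.16, in the first 100 coding bins, to 0.65, in the last 100. The count of genes past 2-fold was 0 in all comparisons. With no level minimum it was 1 in CRISPR against parental and 1 in CRISPR against AZC+MG132, both RRAS. In the last 100 coding bins it was 1 in AZC+MG132 against parental and 1 in CRISPR against AZC+MG132, both RCE1. With the first 10 bins as the window, genes with a higher 5′ share numbered 4 in CRISPR against parental, beside 2 with 20 bins, and 5 in AZC+MG132 against parental, beside 3. They numbered 2 in CRISPR against AZC+MG132, beside 3, and also 2 with 40 bins or the values as deposited. Over all genes the shares with 10 bins were 51.6% in CRISPR against parental, 74.7% in AZC+MG132 against parental and 27.2% in CRISPR against AZC+MG132. The cause was not tested. Of 81 region shares, 4 moved when the carried row was left in, all of RRAS, whose 5′ UTR share was then 11.4% in AZC+MG132, against 24.5%, and 8.60% in parental cells, against 20.9%. Reading HRAS from its 189-codon transcript was an alternative chosen after seeing the data. Depth limits HRAS, RRAS and RRAS2 most, which rest on few stacks of fragments.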
